A study of Equus caballus with 21 samples.

Results

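The immediate early genes EGR1, FOS, JUN, JUNB, ATF3, IER2, IER3 and CCN2, were followed across luminal epithelium, glandular epithelium and stroma of the horse endometrium. The set of 8 was taken by name, and 8 of 8 matched to 1 gene ID each among the 24942 IDs of the deposited count table. The table names them by Entrez gene ID, 100072574 for EGR1, 100051632 for FOS, 100067469 for JUN, 100146801 for JUNB, 100050849 for ATF3, 100063913 for IER2, 100055430 for IER3 and 100073098 for CCN2. The endometrium came from uterine biopsies of healthy warmblood mares on day 12 of the estrous cycle (cyclic) or on day 12 of pregnancy. In both states ovulation had been induced with human chorionic gonadotropin, and only the pregnancy cycles were inseminated. Each library held the RNA of cells that a laser had cut out of 1 compartment of 1 biopsy. Mares B, C, M and U gave luminal and glandular libraries in both states, and mare J gave a cyclic luminal library alone. Stromal libraries came from mares B and M in the cycle and from mares M and U in pregnancy, so there were 5 cyclic and 4 pregnant luminal, 4 and 4 glandular, and 2 and 2 stromal libraries, 21 in all. The labels hold 5 mares, although the series describes 6.

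Immediate early genes are transcribed within minutes of a stimulus, from factors that are already in the cell and without new protein synthesis. Growth factors, stretch, stress and the handling of a tissue are known to switch them on, mostly through mitogen-activated protein kinases that act on serum response factor and its partners. FOS, JUN and JUNB are subunits of the transcription factor AP-1, ATF3 is a related leucine zipper factor of the stress response, and EGR1 is a zinc finger transcription factor. IER2 is a nuclear protein induced by growth factors, and IER3 is a protein that affects cell survival and extracellular signal-regulated kinase signalling. CCN2, also called connective tissue growth factor, is a secreted matricellular protein and a well known target of the YAP and TEAD factors and of transforming growth factor beta. The time from biopsy to freezing is not given per library in the sources used here.

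Levels are given in CPM, counts scaled to the library size after trimmed mean of M values (TMM) scaling. The libraries held between 136259 and 1467510 counts, and 3 counts, used as the floor of detection, stood for 2.74 to 15.6 CPM in luminal, 1.73 to 20.6 CPM in glandular and 5.71 to 18.3 CPM in stromal libraries. Summed levels of epithelial and fibroblast markers set the stromal libraries apart from both epithelia. The 10 matched epithelial markers summed to 701 to 3286 CPM in luminal, 1184 to 15203 in glandular and 73.1 to 568 in stromal libraries, and the 11 matched fibroblast markers to 856 to 5123, 388 to 1660 and 6079 to 12414 CPM. Fibroblast sums exceeded epithelial ones in luminal libraries cyclic C, J and M and pregnant B and M. They were lower in cyclic B and U and pregnant C and U. In pregnant luminal M they stood at 5123 against 2476 CPM. The 4 matched red blood cell markers, CLDN5 of endothelium and ACTG2 of smooth muscle were at 0 in every library. The shallowest luminal library was the pregnant one of mare M, with 136259 counts, and the deepest was the cyclic one of mare C, with 1382614, and results that rest on either are given without it.

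The members were detected very unevenly. CCN2 had counts in 21 of 21 libraries, IER3 and JUN in 19 each, and EGR1 in 17. JUNB had counts in 12, ATF3 in 9 and FOS in 8 libraries, and none of these 3 had a count in any of the 4 stromal libraries. IER2 had 6 counts in the pregnant glandular library of mare M (11.5 CPM) and 0 in the other 20 libraries. A count of 0 leaves room for levels up to the floor of each library, so FOS, JUNB, ATF3 and IER2 were not detectable in stroma at this depth rather than shown to be absent.

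**Figure D1:**
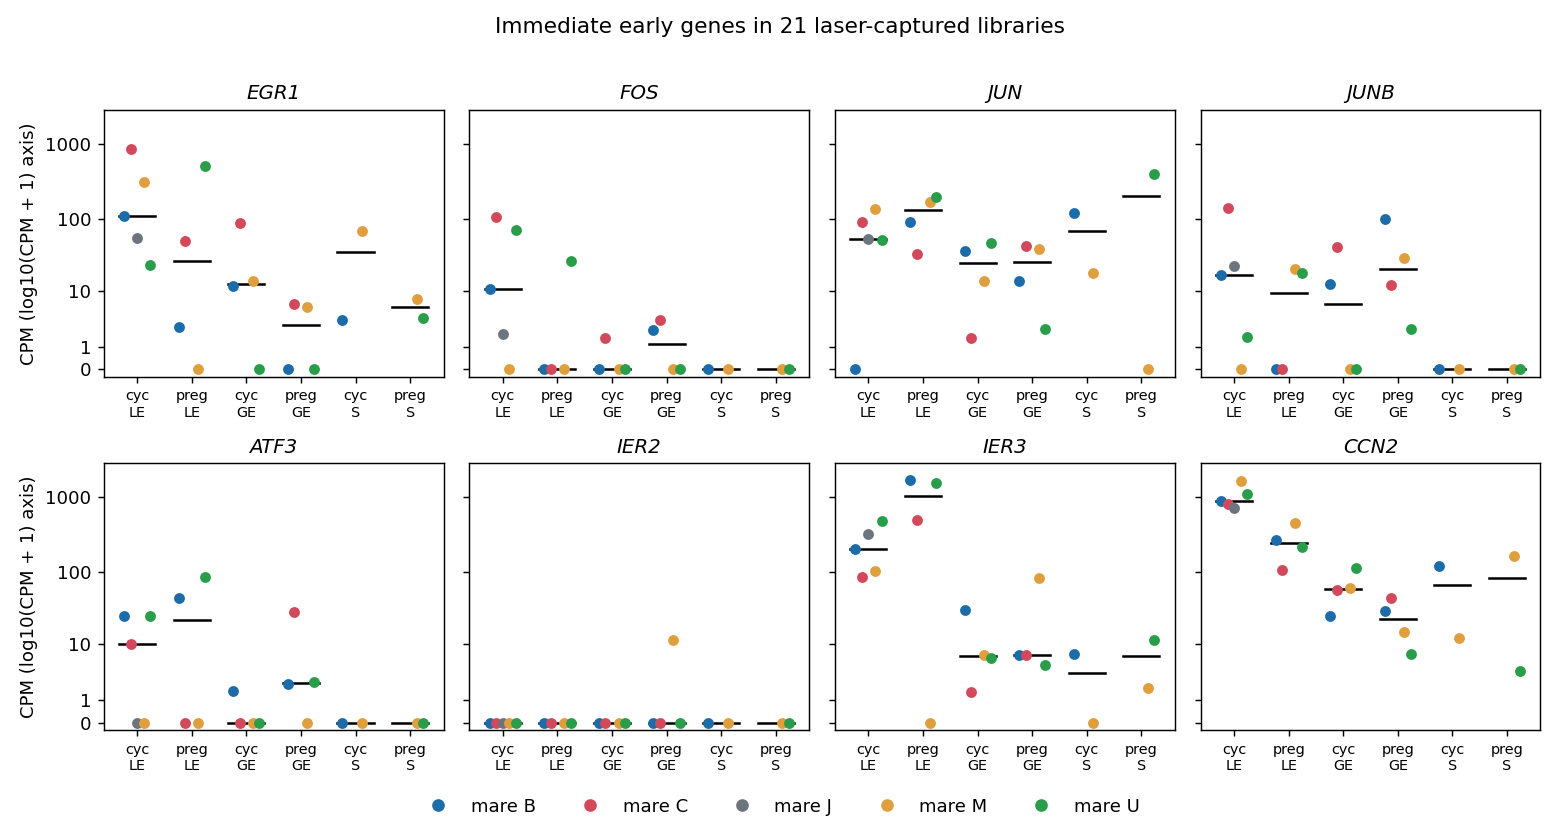
Level of each member in each of the 21 libraries, in CPM on a log10(CPM + 1) axis, by state (cyc, cyclic; preg, pregnant) and compartment (LE, luminal; GE, glandular; S, stromal). Points are libraries coloured by mare and horizontal lines are group medians. CCN2 stood at 723 to 1646 CPM in the cyclic luminal libraries and at 106 to 458 CPM in the pregnant ones, and IER2 was at 0 in 20 libraries.

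CCN2, EGR1 and IER3 were far more abundant in luminal than in glandular epithelium of the same mares. For this comparison the counts of the 8 biopsies that gave both epithelia were summed per mare. Of 8 members 5 passed the filter on low counts (FOS, ATF3 and IER2 did not), and 3 of these 5 passed the test, all higher in luminal epithelium. Of all 7174 genes tested with edgeR 498 (6.94%) were called, and 236 (3.29%) were called higher in luminal epithelium. A summed library cannot tell fewer cells of a type from less RNA per cell.

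CCN2 showed the most regular difference. In the summed luminal libraries it stood at 610 CPM in mare B, 615 in C, 1197 in M and 766 in U. In the glandular libraries it stood at 26.4, 47.7, 25.5 and 64.6 CPM. The lowest luminal sum was thus above the highest glandular one, and the share of all genes separated in this way was not computed. The fitted difference was a log2 fold change of 4.31 ± 0.53 (SE, 4 mares; adjusted p = 9.18e-14), or 19.8-fold. CCN2 was higher in the luminal library in 8 of 8 biopsies, as were 1.94% of the genes tested.

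EGR1 was higher in luminal epithelium by a log2 fold change of 4.75 ± 0.84 (adjusted p = 1.61e-06). Its luminal sums were 61.8, 627, 195 and 210 CPM in mares B, C, M and U, and its glandular sums were 8.59, 27.9, 7.49 and 0 CPM. The luminal sums spanned a wide range and did not overlap the glandular ones, again with no share over all genes computed. The luminal counts of each mare lay mostly in 1 library. These were cyclic B (52 of 53), cyclic C (928 of 949), cyclic M (99 of 99) and pregnant U (192 of 206). EGR1 was higher in the luminal library in 7 of 8 biopsies (5.98% of the genes tested were so in at least 7). The exception was the pregnant biopsy of mare M, with 0 counts in the luminal library and 5.75 CPM in the glandular one, which was 3 counts, the floor of that library. Among the 7, the pregnant biopsy of mare B held 1 luminal count (2.60 CPM, below the floor of 7.80) against 0 in the glandular library.

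IER3 was higher by 4.69 ± 0.73 (adjusted p = 1.36e-08), and again in 7 of 8 biopsies. Luminal sums were 874, 199, 64.9 and 898 CPM in mares B, C, M and U, against glandular sums of 23.9, 5.49, 67.4 and 5.67 CPM. Mare M did not share the difference, since its pregnant biopsy held 0 counts of IER3 in the luminal library and 84.3 CPM in the glandular one. Its cyclic biopsy held 104 CPM in luminal and 6.86 CPM in glandular epithelium, as in the other mares.

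The AP-1 subunits JUN and JUNB did not pass this test, and FOS was not tested. JUN differed by 1.47 ± 1.08 (adjusted p = 0.615) and was higher in the luminal library in 6 of 8 biopsies. JUNB differed by 0.36 ± 1.80 (adjusted p = 0.978), with the luminal library higher in 4 biopsies and lower in 3. FOS had 172 counts in the 9 luminal and 8 counts in the 8 glandular libraries, but 114 of the former lay in the cyclic library of mare C and 42 in that of mare U. ATF3 had 88 counts in luminal and 53 in glandular libraries, and 49 of the latter came from the pregnant library of mare C. Neither FOS nor ATF3 was tested here, because too few libraries held counts.

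Other cells moved with the luminal samples as well. Ciliated cell markers (7 matched) summed to 359 to 2259 CPM in luminal and 82.4 to 718 CPM in glandular libraries, and lymphocyte markers (11 matched, of which CD79A, MS4A1 and NKG7 were at 0 throughout) to 18.2 to 563 and 0 to 66.9 CPM. Their part in the 3 differences was not tested. Fibroblast markers were also higher in luminal than in glandular libraries by their medians, 1774 against 484 CPM. In the 4 stromal libraries, where fibroblast markers were at their highest, CCN2 stood at 3.83 to 164 CPM, IER3 at 0 to 11.5 CPM and EGR1 at 3.55 to 67.0 CPM. The part of fibroblasts in the 3 differences was not tested either.

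The calls of CCN2, EGR1 and IER3 held when any 1 mare was left out, and that of EGR1 was lost by limma on log2(signal + 1) of 21 libraries (3.29, adjusted p = 0.0723). With pregnant biopsies alone only 1 member, IER3, passed. There CCN2 differed by 3.61 (adjusted p = 0.18) and EGR1 was not tested. With cyclic biopsies alone IER3 differed by 4.60 (adjusted p = 0.0646).

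**Figure D2:**
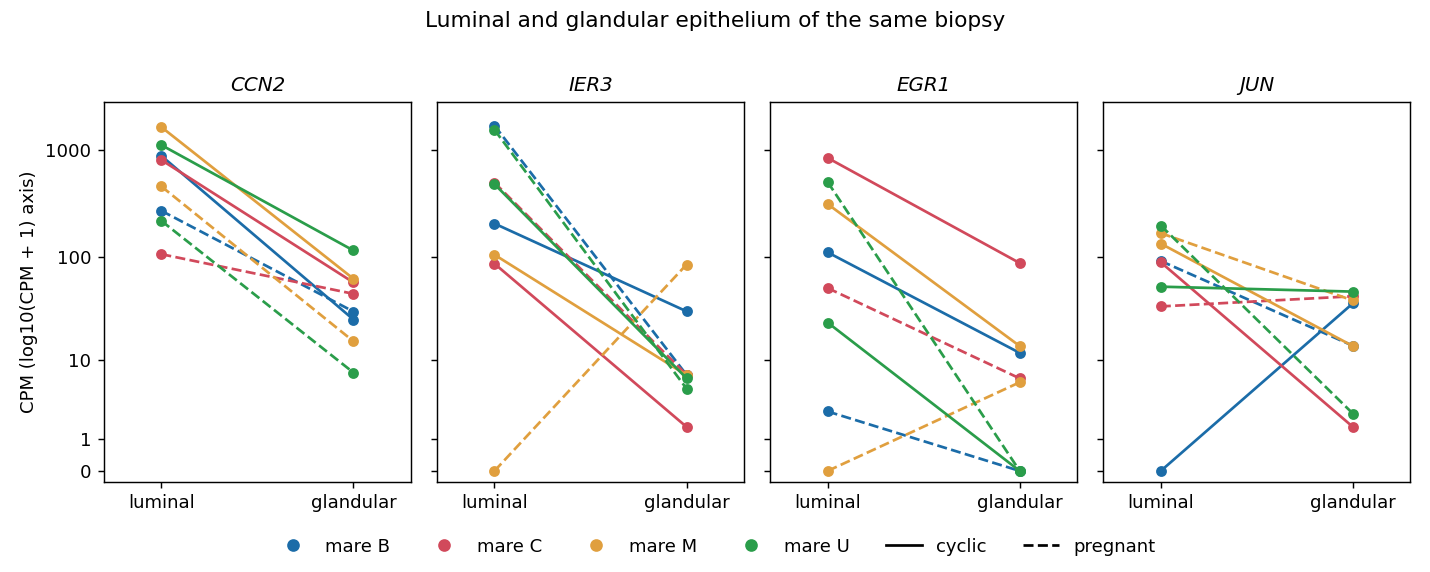
CPM on a log10(CPM + 1) axis of CCN2, IER3, EGR1 and JUN in luminal and glandular epithelium of the same biopsy, 1 line for each of 8 biopsies, solid for cyclic and dashed for pregnant, coloured by mare. CCN2 was higher in the luminal library in 8 of 8 biopsies, and the 1 rising dashed line of IER3 is the pregnant biopsy of mare M.

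Stroma held little IER3. Over the mares with both compartments, B, M and U, stroma had 2, 1 and 3 counts of IER3 against 97, 33 and 592 in luminal epithelium. The fitted difference was a log2 fold change of -5.66 ± 1.46 (adjusted p = 0.0100). Of 8 members 4 passed the filter, and IER3 alone passed the test, against 61 of 3512 genes (1.74%) in either direction and 41 (1.17%) lower in stroma. The call was lost without any 1 of the 3 mares, with adjusted p = 0.0502 without B, 0.0838 without M and 1.0 without U, and in every fit of the deposited signal by limma.

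CCN2 and EGR1 had estimates of similar size that did not pass. CCN2 differed by -3.59 ± 1.16 (adjusted p = 0.0901) and was lower in stroma in 4 of 4 biopsies. EGR1 differed by -4.74 ± 2.09 (adjusted p = 0.332) and was lower in 3 of 4. DESeq2 called EGR1 (adjusted p = 0.0403), and edgeR on the authors' 19 libraries called CCN2 (-5.01, adjusted p = 0.0450).

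JUN had a wide spread in stroma. It stood at 117 CPM in cyclic B and 18.3 in cyclic M, and at 0 in pregnant M and 398 in pregnant U. The last value was the highest JUN level of the 21 libraries, and the 4 stromal values covered the whole range seen in epithelium. JUN differed between stroma and luminal epithelium by 1.00 ± 2.58 (adjusted p = 0.955), with an estimate of -1.78 without mare B.

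Between stroma and glandular epithelium 0 of the 3 members tested (EGR1 was not among them) passed (63 of 4830 genes, 1.3%, did so), and 0 had an unadjusted p under 0.05. IER3 differed by -1.95 ± 2.77, JUN by 1.90 ± 2.72 and CCN2 by 1.55 ± 2.56, and these intervals are too wide to tell their direction. DESeq2 called 0 of them as well.

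Pregnancy was compared with the cycle in each compartment, to ask how the endometrium responds to a conceptus on day 12. In luminal epithelium CCN2 was lower in every pregnant library than in every cyclic one, and IER3 was higher in pregnancy in 3 of 4 mares. By edgeR's test 0 of the 4 members that passed the filter were called, against 19 of 4344 genes (0.437%). CCN2 and IER3 had an unadjusted p under 0.05, as had 339 genes in all.

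CCN2 stood at 885, 809, 723, 1646 and 1117 CPM in the cyclic luminal libraries of mares B, C, J, M and U. In pregnancy it stood at 270, 106, 458 and 217 CPM in mares B, C, M and U. The groups did not overlap, which held in this direction for 3.29% of the genes tested, and the pregnant level was lower in 4 of 4 mares, which held for 11.8%. The means were 1036 ± 371 (SD, n = 5) and 263 ± 147 CPM (n = 4), and the fitted difference was -1.95 ± 0.67 (unadjusted p = 0.00415, adjusted p = 0.245 by edgeR). With the mare as a block it was -2.16 (adjusted p = 0.211). It passed in 1 fit, limma on the authors' 19 libraries (-2.42, adjusted p = 0.0431).

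IER3 went from 205 to 1698 CPM in mare B, from 85.8 to 496 in C and from 481 to 1551 in U between the cycle and pregnancy. In mare M it went from 104 CPM to 0, and the cyclic library of mare J held 323 CPM. The groups overlapped through mare M. The 3 pregnant libraries with counts stood at 496 CPM or more, against a highest cyclic level of 481 CPM. The share of all genes with this pattern was not computed. The fourth was the library of 136259 counts, in which 3 counts stood for 15.6 CPM. That floor lay below the lowest cyclic level of IER3, 85.8 CPM. The same library held 88 counts of CCN2 and 32 of JUN, and why it held none of IER3 was not tested. The fitted difference was 1.98 ± 0.70 (unadjusted p = 0.00481, adjusted p = 0.264). Without the pregnant library of mare M it was 2.39 and passed (adjusted p = 0.0233). With the mare as a block it was 1.46 (adjusted p = 0.875), and limma on log2(signal + 1) of 21 libraries gave -0.05 (adjusted p = 0.992).

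Between states CCN2 and IER3 went in opposite directions in mares B, C and U, and both were lower in pregnancy in mare M. Neither difference passed the test. Across the 9 luminal libraries their log2 CPM had a Pearson r of -0.332, against 0.510 across all 21 libraries, given as a description because the libraries share depth and state. Epithelial markers summed to 701 to 1721 CPM in cyclic and 1724 to 3286 CPM in pregnant luminal libraries, and fibroblast markers to 856 to 2183 and 1420 to 5123 CPM. Their part in the values of CCN2 and IER3 was not tested.

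**Figure D3:**
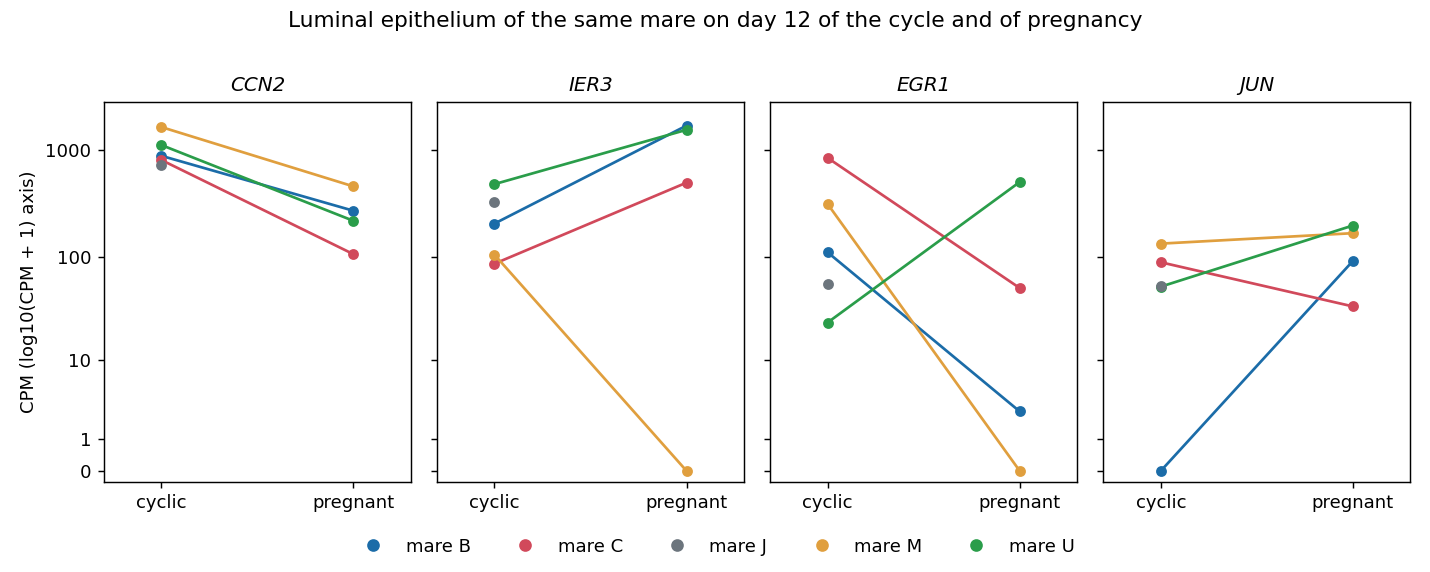
CPM on a log10(CPM + 1) axis of CCN2, IER3, EGR1 and JUN in luminal epithelium of the same mare in the cycle and in pregnancy, coloured by mare, with the cyclic library of mare J as a single point. CCN2 was lower in pregnancy in 4 of 4 mares, and IER3 was higher in 3 of 4 and at 0 in mare M.

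EGR1 spanned a wide range in both states. Its luminal levels were 110, 847, 55.1, 313 and 23.4 CPM in cyclic mares B, C, J, M and U, and 2.60, 50.4, 0 and 503 CPM in pregnant mares B, C, M and U. The pregnant level was lower in 3 of 4 mares, and mare U, with the lowest cyclic level, had the highest pregnant one. The fitted difference was -0.96 ± 0.95 (adjusted p = 0.954). It turned to 0.20 without the cyclic library of mare C and was -3.92 with the mare as a block (adjusted p = 0.418).

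The same cyclic luminal library of mare C held the highest level of EGR1 (847 CPM), FOS (104 CPM) and JUNB (140 CPM) among the 21 libraries. It was the deepest luminal library and had the highest share of ribosomal RNA among them, 47.7% of its counts against 0.45% to 35.0% in the others. With the ribosomal RNA genes left out of the library size, it still held the highest level of each among the 21 libraries (1282, 158 and 213 CPM). Across the 9 luminal libraries log2 CPM had a Pearson r with log2 total count of 0.744 for FOS and 0.561 for EGR1, against 0.215 for CCN2 and -0.150 for JUN, and the part of depth was not tested.

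FOS otherwise stood at 70.3 CPM in cyclic U, 10.6 in cyclic B, 1.90 in cyclic J and 26.2 in pregnant U, and at 0 in the remaining luminal libraries. ATF3 stood at 25.4, 10.0 and 25.1 CPM in cyclic B, C and U and at 44.2 and 86.5 CPM in pregnant B and U. The other 4 luminal libraries held no count of ATF3. Log2 CPM of FOS and ATF3 had a Pearson r of 0.628 across 21 libraries and of 0.521 across the 9 luminal ones, as a description.

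JUN stood at 0, 88.5, 53.2, 133 and 51.9 CPM in cyclic luminal libraries of mares B, C, J, M and U, and at 91.0, 33.6, 166 and 197 CPM in pregnant mares B, C, M and U. The groups overlapped and the difference was 0.92 ± 1.32 (adjusted p = 0.973). JUNB stood at 16.9, 140, 22.8, 0 and 1.67 CPM in the cycle and at 0, 0, 20.8 and 18.3 CPM in pregnancy, with overlapping groups.

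In glandular epithelium 2 members, CCN2 and JUN, passed the filter and 0 were called (3 of 4816 genes, 0.0623%). CCN2 stood at 25.1, 56.9, 61.7 and 114 CPM in the cycle and at 30.0, 44.4, 15.3 and 7.32 CPM in pregnancy in mares B, C, M and U. It was lower in pregnancy in 3 of 4 mares, by -1.39 ± 1.45 (adjusted p = 0.999), and 0 of these 2 members had an unadjusted p under 0.05. EGR1 in the cyclic glands stood at 11.7, 87.0, 13.7 and 0 CPM and in the pregnant glands at 0, 6.34, 5.75 and 0 CPM. JUNB stood at 12.5, 41.1, 0 and 0 CPM in the cycle and at 99.1, 12.1, 28.7 and 2.44 CPM in pregnancy. The value of pregnant mare B was its highest in any gland library, and the groups overlapped.

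Of the other members, FOS, ATF3 and IER2 each exceeded the floor in 1 of 8 gland libraries, IER3 in 3 and JUN in 5. IER3 stood at 30.1, 1.58, 6.86 and 6.35 CPM in the cyclic and at 6.91, 6.91, 84.3 and 4.88 CPM in the pregnant glands of mares B, C, M and U, higher in pregnancy in 2 of 4 mares. FOS had 1 count in the cyclic and 7 in the pregnant glands, and ATF3 had 2 and 51, of which 49 lay in pregnant C. JUN stood at 35.9, 1.58, 13.7 and 46.6 CPM in the cycle and at 13.8, 42.1, 38.3 and 2.44 CPM in pregnancy, with overlapping groups and an estimate close to 0 (0.00033 ± 1.58; adjusted p = 1.00).

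In stroma, with 2 libraries a state, CCN2 and JUN were tested and 0 were called (0 of 2212 genes, 0.0%; DESeq2 also called 0, and 88 genes had an unadjusted p under 0.05). CCN2 stood at 121 and 12.2 CPM in cyclic B and M and at 164 and 3.83 CPM in pregnant M and U, so each state held a high and a low library. EGR1 stood at 3.55 and 67.0 CPM in cyclic B and M and at 7.62 and 3.83 CPM in pregnant M and U, and IER3 had 2 counts in the cyclic and 4 in the pregnant libraries, so neither was tested. The estimates were 0.35 ± 2.92 for CCN2 and 1.43 ± 2.82 for JUN (both adjusted p = 0.999), and both change sign in several alternatives.

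No member passed the test of whether the pregnancy effect differs between glands and luminal epithelium. Of 6 members tested 0 passed (1 of 6884 genes, 0.0145%), 0 had an unadjusted p under 0.05, and adjusted p ran from 0.918 to 0.982. The estimate for CCN2, glandular minus luminal, was 0.74 ± 1.35 and that for IER3 was -1.57 ± 1.68. The other estimates were 3.59 ± 3.66 for JUNB, 2.35 ± 3.91 for ATF3, 0.67 ± 2.87 for EGR1 and -1.05 ± 2.92 for JUN, beside a median of 1.28 over all genes. DESeq2 called 36 genes and none of the members.

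**Figure D4:**
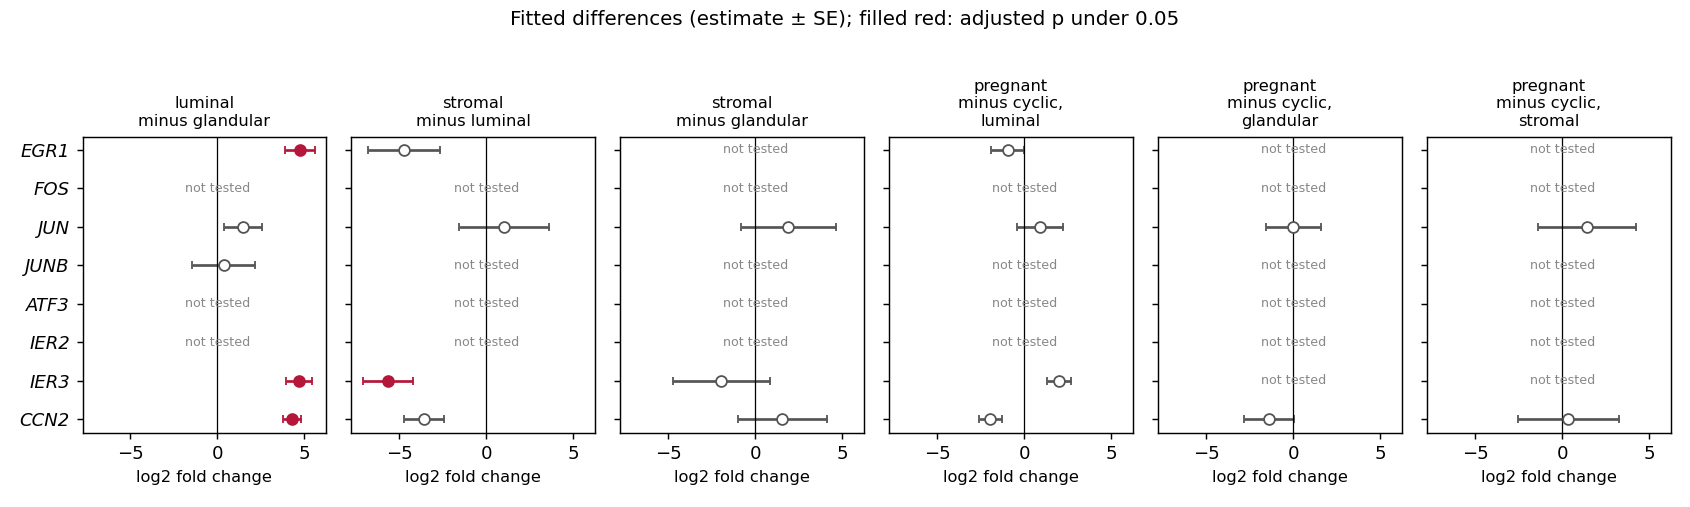
Fitted log2 fold change ± SE of each member (rows) in 6 comparisons (panels) by edgeR on raw counts; filled red points passed an adjusted p of 0.05, and members that did not pass the filter on low counts are marked as not tested. The red points are CCN2, IER3 and EGR1 in luminal minus glandular and IER3 in stromal minus luminal.

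Relatives of the members were looked up in lists chosen for their place around the immediate early response. Of 10 matched AP-1 and ATF factors other than the members, FOSL1, BATF and BATF3 had no count in any library, and 0 of 3 tested passed between luminal and glandular epithelium, where 6.94% of all genes passed. Their median log2 fold change was -0.64, beside -0.25 over all genes. FOSL2, an AP-1 subunit, had the smallest p and differed by 0.99 ± 0.56 (adjusted p = 0.423). It was detected in 21 of 21 libraries, at 319 ± 325 CPM in luminal (n = 9) and 148 ± 82.6 CPM in glandular (n = 8) epithelium.

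Among 19 other induced transcription factors EGR3 and EGR4 had no count. Of the 7 tested between luminal and glandular epithelium 1 passed, beside 6.94% of all genes. This was ID2, an inhibitor of basic helix-loop-helix factors, which was higher in luminal epithelium by 2.88 ± 0.89 (adjusted p = 0.0230). The call of ID2 held in 6 of 17 settings, and its estimate was -0.74 in pregnant biopsies alone. The median of the list was 1.63. NR4A2, an orphan nuclear receptor, had the smallest p of the list between states in luminal epithelium, at 3.06 ± 1.16 (adjusted p = 0.324). It reached 572 CPM in pregnancy and was at 0 in 2 of the 4 pregnant libraries.

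Of 23 matched feedback inhibitors and related induced genes 9 were tested, and 1 was higher and 1 lower in luminal than in glandular epithelium. Of all genes 6.94% passed in either direction. The median of the list was 0.14. ERRFI1, an inhibitor of the epidermal growth factor receptor, was higher in luminal epithelium by 2.36 ± 0.61 (adjusted p = 0.00303), at 405 ± 393 CPM (n = 9) against 86.0 ± 69.9 CPM (n = 8). Its call was lost without mares B, M or U, with estimates from 1.62 to 2.37. ERRFI1 was also lower in stroma than in luminal epithelium, by -6.40 ± 1.47 (adjusted p = 0.00218), with 7.72 ± 7.09 CPM in stroma (n = 4). That call was lost without mare B (adjusted p = 0.0502) and without mare U (adjusted p = 0.51).

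GADD45G, a stress sensor of the growth arrest family, had the opposite pattern. It had 308 counts in the 8 glandular libraries and 1 count in the 8 luminal libraries of the same biopsies, a ratio of CPM of 214 (95% counting interval by the exact Clopper-Pearson method 38.2 to 8488; adjusted p = 0.0135 by edgeR). Its call was lost without mare B, C or M, with adjusted p up to 0.207.

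Of 13 YAP and TEAD targets and factors, the pathway of CCN2, 7 were tested between the epithelia and 0 passed, beside 6.94% of all genes, so that this count does not set the list apart. Their median was 0.38. CCN1, the closest relative of CCN2 in the list, had counts in 1 library, cyclic luminal C (32.8 CPM), and ANKRD1 had none. WWTR1, which encodes TAZ, a close relative of YAP, had the smallest p in both comparisons. It differed by 1.43 ± 0.60 between the epithelia (adjusted p = 0.171; -0.35 in cyclic biopsies alone). Between states in luminal epithelium it differed by 2.26 ± 0.79 (adjusted p = 0.245), with a mean of 575 ± 224 CPM in the pregnant and 119 ± 55.1 CPM in the cyclic libraries, the direction opposite to that of CCN2.

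Of 22 kinases and serum response factor partners upstream of these genes 16 were tested between the epithelia and 0 passed (6.94% of all genes did), with a median of -0.13. In luminal epithelium 1 of 10 tested passed between states, beside 0.437% of all genes. This was RPS6KA3, a ribosomal S6 kinase of the extracellular signal-regulated kinase pathway, with 402 counts in cyclic and 1 in pregnant libraries, a CPM ratio of 184 (counting interval 32.8 to 7276; adjusted p = 0.0369). The call was lost when any of 7 single libraries was left out, cyclic B, C, J, M or U or pregnant B or U, with adjusted p from 0.0686 to 0.158.

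Heat shock genes, which respond to stress by another route, included 2 of 10 tested that were called higher in luminal than in glandular epithelium. Of all genes 3.29% were called higher, and the median of the list was 0.70. CRYAB, a small heat shock protein, was higher by 5.86 ± 1.23 (adjusted p = 0.000101) and HSPH1, a cochaperone, by 3.37 ± 0.90 (adjusted p = 0.00504). Both calls were lost without mare M, with adjusted p = 0.123 and 0.108. HSPH1 was also not called without mare C (adjusted p = 0.0643). CRYAB was the 1 of 9 heat shock genes tested that passed between states in luminal epithelium, where 0.437% of all genes passed. It stood at 360 ± 502 CPM in pregnancy (n = 4) and 18.6 ± 17.7 CPM in the cycle (n = 5). That call was lost without any 1 of the 5 cyclic libraries or without the pregnant library of mare B or M, with adjusted p from 0.0542 to 0.723.

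Genes with the most similar pattern were sought among those with at least 10 counts in at least 15 of the 21 libraries. By Pearson r of log2 CPM with the mean of the centred members, those near the top of 1676 genes included EPAS1 (0.775), CFAP44 (0.772), LOC100066131 (0.761) and FAM91A1 (0.742). CFAP44 encodes a protein of cilia. Those near CCN2 alone included RASGRP1 (0.775), and the closest to IER3 were ABCA5 (0.746) and PTPRF (0.737). For EGR1 they were COL12A1 (0.674) and EPAS1 (0.638), and for ATF3 ABCA5 (0.713) and CTSB (0.641). FOS was closest to FAM91A1 (0.623), JUN to EIF4E3 (0.692) and JUNB to CCDC25 (0.614). These values are descriptions over 21 libraries that share compartment and depth, and they carry no test.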

How the data were processed

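The submitters' processing notes name Trimmomatic 0.32.2 and HISAT2 2.0.3. The counter, genome build and annotation are each not given in the sources used here, so coordinates are left out. The authors deposited raw read counts for 24942 gene IDs in 21 libraries. The authors also deposited 2 tables of signal, counts divided by a library constant, of 10307 genes in 21 and 10410 genes in 19 libraries (without pregnant luminal and cyclic glandular M); 100% of values returned whole reads within 1e-06, and each table lists 7 of the 8 members (not IER2). Symbols came from a RefSeq gene table by gene ID (21420 IDs, 85.9%), used for names only. Of the genes of the lists, JUND, ZFP36, IER5, HSPA1A and HSPE1 had no match.

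Tests used edgeR 4.0.16 in R 4.3.3 (quasi-likelihood F-test, two-sided, TMM, filterByExpr with minimum count 10 and minimum total count 15, Benjamini-Hochberg over all genes, threshold 0.05). An adjusted p with no tool beside it is from edgeR, and the SE is the estimate divided by the square root of F. States were compared without a block. Compartments were compared on counts summed per mare, with the mare as a block. Glandular and luminal pregnancy effects were set against each other in 16 epithelial libraries with the biopsy as a block. Alternatives were DESeq2 1.42.0, limma 3.58.1 on log2(signal + 1 or + 5), RLE scaling, no filter, ribosomal RNA genes left out, leaving out libraries, subsets of biopsies and, added after seeing the data, edgeR on the recovered reads. The scripts were tested on simulated counts. The same letter marks the same mare; its luminal libraries in the 2 states deviated from their group means with r of 0.021 to 0.056 across 6800 genes, and glandular ones with -0.027 to 0.043.

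The members and lists were chosen with earlier results of these data known. All 8 members were eligible in every comparison, and those that did not pass the filter have no test. From each list up to 4 genes that passed, or otherwise up to 2 with the smallest p, were eligible to be named; genes without a count, CCN1 and single marker genes were named after their values were seen. Some genes that the rule on similar patterns names are not reported here. Floors and counting intervals hold for counting error alone, because no molecular identifiers mark the amplified reads. Reads of near-identical or overlapping genes, and of antisense transcripts, cannot be told apart.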

Additional observations from a re-analysis of the deposited data

Results flagged for a closer look

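In 9 of 29 pairs of gene and group with 4 or 5 libraries, 1 library stood apart from the others by Dixon's criterion. Groups of normally distributed values meet it in about 1 of 20 cases, a rate that does not hold for these levels. Many of these groups hold mostly zeros, where any library with counts stands apart. In pregnant luminal epithelium mare U stood at 503 CPM for EGR1 (next 50.4) and at 26.2 CPM for FOS (next 0). In cyclic luminal epithelium mare C stood at 140 CPM for JUNB (next 22.8). In cyclic glandular epithelium mare C stood at 87.0 CPM for EGR1 (next 13.7) and 1.58 CPM for FOS (next 0), and mare B at 1.67 CPM for ATF3 (next 0). These values of FOS and ATF3 were 1 and 2 counts, below the floor of 3 counts. In pregnant glandular epithelium mare C stood at 28.2 CPM for ATF3 (next 2.44), and mare M at 84.3 CPM for IER3 (next 6.91) and 11.5 CPM for IER2 (next 0).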

How the results depend on the processing

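Over the members' fitted values and all alternatives, 348 of 399 kept direction and side of the threshold. A call was lost in 11 and gained in 5, and 35 reversed. The cause was not tested. The tally holds repeats. Reads recovered from the signal of 21 libraries equal the deposited counts of the genes it lists. Between states in epithelium, those of 19 libraries repeat the fits without pregnant luminal M or cyclic glandular M. Members called between luminal and glandular epithelium numbered 3, and 1 in pregnant biopsies alone. The call of EGR1 was lost by limma + 1 on 21 libraries and that of IER3 in cyclic biopsies alone. EGR1 had a fit in 15 settings, against 17 for CCN2 and IER3. The leave-one-out range was 3 to 3. Between stroma and luminal epithelium the 1 call became 2 by DESeq2 and on the recovered reads of 19 libraries, and 0 without the filter, in each limma fit, in single libraries, in cyclic or pregnant biopsies alone and without any mare. Between states in luminal epithelium 0 became 1 by limma and by edgeR on 19 libraries, with a leave-one-out range of 0 to 1.

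All reversals of members were among results that did not pass, whereas ID2, a list gene, had passed. Between states they were IER3 in luminal epithelium (-0.051 by limma + 1 on 21 libraries), EGR1 there (0.20 without cyclic C), JUN in glands (-0.17 by RLE, -0.18 by DESeq2, -0.20 on 19 libraries and without cyclic M, -0.37 without cyclic C, and -0.32 and -0.31 without pregnant C and M), CCN2 in stroma (-0.28 by DESeq2, -0.52, -0.28 and -0.54 by limma + 1, + 5 and on 19 libraries, -0.45 without cyclic M, -4.07 without pregnant M) and JUN in stroma (-1.26, -0.25 and -1.32 by limma, -7.49 without pregnant U). Between luminal and glandular epithelium they were JUNB (-0.59, -0.31 and -0.71 by limma, -0.45 without mare U), and, among list genes, WWTR1 (-0.35, cyclic only) and ID2 (-0.74, pregnant only). JUN, stromal minus luminal, was -0.79 in single libraries, -2.94 in pregnant biopsies and -1.78 without mare B, and stromal minus glandular -0.38 without mare U. The difference of the pregnancy effect was for IER3 0.56 by limma + 1 on 21 libraries and 0.043 without mare B, for JUN 0.59 and 0.94 without mares B and U, and for EGR1 -0.86 by limma on 19 libraries, -1.69 on their recovered reads and without mare M, and -1.76 without the block. The leave-one-out ranges of these results were -3.91 to 0.20 for EGR1 in luminal epithelium, -0.37 to 0.57 for JUN in glands, -4.07 to 3.03 for CCN2 and -7.49 to 3.39 for JUN in stroma, -0.45 to 1.25 for JUNB between the epithelia, -1.78 to 3.61 and -0.38 to 4.27 for JUN in stroma against luminal and glandular epithelium, and, for the pregnancy effect, -1.69 to 2.13 for EGR1, -3.64 to 0.94 for JUN and -2.70 to 0.043 for IER3.

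Genes called moved more. Between states in luminal epithelium 19 became 122 by DESeq2, 12 without the filter, and 7 and 4 by limma + 1 and + 5. On 19 libraries they became 15 by limma and 37 by edgeR on the recovered reads. With the replicate block they became 12 (leave-one-out 2 to 37). In glands 3 became 0 by RLE, 1 by DESeq2, 34 without the filter and 1 by each limma fit of 21 libraries. On 19 libraries they became 2 by limma and 5 by edgeR on the recovered reads. With the replicate block they became 0 (leave-one-out 0 to 28). In stroma 0 became 2 without the filter (leave-one-out 0 to 2). Luminal minus glandular, 498 became 1182 by DESeq2, 247 in single libraries, 120 in cyclic and 130 in pregnant biopsies (230 to 411). Stromal minus luminal, 61 became 352 by DESeq2, 29 without the filter, 40 and 33 by limma on 21 and 19 libraries, 34 in single libraries, 8 in cyclic and 0 in pregnant biopsies (18 to 36). Stromal minus glandular, 63 became 301 by DESeq2, 20 without the filter, 30 by limma on 19 libraries, 99 with no replicate block, 3 in cyclic and 0 in pregnant biopsies (0 to 45). The 1 gene of the pregnancy effect became 36 by DESeq2, 0 without ribosomal RNA genes and 8 with no replicate block.

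RLE scaling moved the median of all genes from -0.04 to 0.11 (luminal, between states), 0.07 to -0.05 (glandular), 0.26 to 0.02 (stromal), -1.07 to -0.79 (stromal minus glandular) and 1.28 to 0.98 (pregnancy effect), and reversed JUN in glands alone among the members. The block changed no call of a member; it could not be fitted in stroma, where mare M alone gave both states.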
